A study of Arabidopsis thaliana with 9 samples.

Results

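In callus of Arabidopsis thaliana, 109 protein-coding genes had RNA levels that went down stepwise as the dose of PNET1 went up: highest in a pnet1 mutant, lower in the wild type and lowest in a line that overexpresses PNET1. They were chosen from 16930 protein-coding genes with a mean of at least 2 CPM (counts per 1000000 counts of the library) in the mutant, out of 27628 protein-coding genes and 32833 genes in the count table. A gene was taken when every wild-type library lay below every mutant library, every overexpression library lay below every wild-type library, and log2(mean CPM + 0.5) fell by at least 0.4 at each of the 2 steps. The order and the size of the steps in these genes were therefore set by the choice; they are given below as a description, with no test. All conditions together took 0.644% of the eligible genes, and 856 eligible genes stood in the same order without the demand on the size of the steps.

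Callus was grown from hypocotyl pieces of dark-grown seedlings, for 4 days on callus induction medium and then for 10 days on shoot induction medium, and poly(A) RNA was sequenced from 3 libraries of each genotype. The wild type was the ecotype Col-0 with no treatment, and the 2 other genotypes, a pnet1 knockout and the overexpression line (OEP1 in the labels), were grown in the same way. The column names of the deposited tables point to 1 mutant allele, pnet1_1, and 1 overexpression line; the promoter that drives the transgene was not given in the sources used here. Nothing in the labels says that the 3 libraries of a group came from separate cultures, so the spread between them may be technical.

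PNET1 is a membrane-spanning protein of the plant nuclear pore, the channel through which RNA and protein pass the nuclear envelope. On callus induction medium, which is rich in auxin, hypocotyl cells around the vascular strands divide and form a pluripotent tissue; on shoot induction medium, which is rich in cytokinin, part of that tissue forms shoot meristems. Auxin, cytokinin, ethylene, gibberellin and wound-responsive transcription factors all act in this sequence.

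The label of the genotypes was checked on the gene itself. The deposited tables give no gene the name PNET1; AT1G07970 was taken to be it from outside knowledge. This gene ( TAIR10 chr1:2469218-2472806, minus strand) stood at 1.56, 1.12 and 1.38 CPM in the mutant libraries, at 32.3, 31.0 and 28.7 CPM in the wild type and at 4621, 4884 and 5241 CPM in the overexpression line. The overexpression mean was 160.2-fold above the wild type, and the wild type 22.7-fold above the mutant. The 3 groups did not overlap, so AT1G07970 itself ran in the opposite order to the 109 genes.

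Library totals lay between 16890848 and 19493969 counts. On the first principal component of all genes, which held 67.7% of the variance, the mutant libraries scored 44.4 to 51.2, the wild type -19.2, -16.2 and -1.57, and the overexpression line -23.2, -41.0 and -44.6. In the wild type replicate 3, and in the overexpression line replicate 1, stood apart from the rest of the group. Marker genes of callus and wound regeneration were measured in all groups: their summed level was 2199.7 to 2296 CPM in the mutant, 1735 to 1897 CPM in the wild type and 1645 to 1824 CPM in the overexpression line. The sum includes the polyol transporter genes AT3G18830 and AT2G18480, matched by the symbols PLT5 and PLT3. AT3G18830 averaged 242, 214 and 235 CPM in mutant, wild type and overexpression line. In bulk tissue, fewer cells of a type and less RNA per cell cannot be told apart.

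An auxin response element and a DRE core, taken singly, were each in a larger share of the 109 genes than of all eligible genes. For the auxin response element the interval given below includes the eligible share, and the share with both motifs was not compared. The upstream stretches of 5 of the 7 members with both motifs are printed here, without XTH20 and NUCL2. Each is the 250 bases before the annotated start of the gene, 5′ to 3′, in TAIR10 coordinates and from the RefSeq TAIR10.1 genome; all 5 genes lie on the plus strand. Capitals mark an auxin response element (TGTCTC or TGTCGG) or a DRE core (ACCGAC), on either strand; where TGTCGG is followed by T, the 2 motifs share bases, since GTCGGT is the DRE core on the other strand.
IAA19, chr3:5263751-5264000: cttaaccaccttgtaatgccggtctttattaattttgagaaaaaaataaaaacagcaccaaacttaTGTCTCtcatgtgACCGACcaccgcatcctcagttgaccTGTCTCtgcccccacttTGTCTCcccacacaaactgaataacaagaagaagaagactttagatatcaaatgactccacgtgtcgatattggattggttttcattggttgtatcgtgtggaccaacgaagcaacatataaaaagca
PDF2.2, chr2:527929-528178: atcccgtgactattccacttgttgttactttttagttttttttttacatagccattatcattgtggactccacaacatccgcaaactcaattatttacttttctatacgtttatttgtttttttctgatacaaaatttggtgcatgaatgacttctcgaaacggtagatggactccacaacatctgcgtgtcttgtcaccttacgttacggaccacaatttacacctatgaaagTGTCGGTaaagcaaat
PDF2.1, chr2:538000-538249: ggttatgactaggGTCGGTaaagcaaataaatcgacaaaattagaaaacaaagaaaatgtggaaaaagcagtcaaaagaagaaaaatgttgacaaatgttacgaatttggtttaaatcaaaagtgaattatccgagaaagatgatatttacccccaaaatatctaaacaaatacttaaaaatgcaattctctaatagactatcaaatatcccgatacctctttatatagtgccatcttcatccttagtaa
PDF2.3, chr2:539648-539897: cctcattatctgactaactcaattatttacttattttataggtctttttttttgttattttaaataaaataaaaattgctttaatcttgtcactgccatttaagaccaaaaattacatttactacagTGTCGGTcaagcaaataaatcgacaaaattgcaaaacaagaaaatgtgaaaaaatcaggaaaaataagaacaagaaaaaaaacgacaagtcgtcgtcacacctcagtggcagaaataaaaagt
ACS8, chr4:17751829-17752078: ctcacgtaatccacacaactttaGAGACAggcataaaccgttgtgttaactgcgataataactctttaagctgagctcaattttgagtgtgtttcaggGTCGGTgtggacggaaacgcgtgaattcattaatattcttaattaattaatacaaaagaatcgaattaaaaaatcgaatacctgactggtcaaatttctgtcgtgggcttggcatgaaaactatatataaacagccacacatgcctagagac
In the IAA19 stretch the 3 auxin response elements begin 184, 145 and 128 bases before the start, all as TGTCTC, and a DRE core begins 171 bases before it. PDF2.2 and PDF2.3 each hold the merged form TGTCGGT, which begins 16 bases before the start of PDF2.2 and 123 bases before that of PDF2.3. PDF2.1 holds GTCGGT 237 bases before its start, and its auxin response element lies in the 50 bases after the start, which are not printed. ACS8 holds an auxin response element on the minus strand, 227 bases before the start, and a DRE core 152 bases before it.

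Across the 109 genes, the fall from the mutant to the wild type ran from 0.41 to 2.68 with a median of 0.59, in log2(mean CPM + 0.5), and the fall from the wild type to the overexpression line ran from 0.40 to 1.15 with a median of 0.54. Over all eligible genes the medians of the same steps were 0.03 and -0.01. The whole fall from mutant to overexpression line had a median of 1.12 and reached at least 1 in 89 members, but at least 2 in a single one. The first step was the larger in 63 members and the second in 46. Both steps share the wild-type libraries, so a chance deviation of these would enter both with opposite sign.

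**Figure D1:**
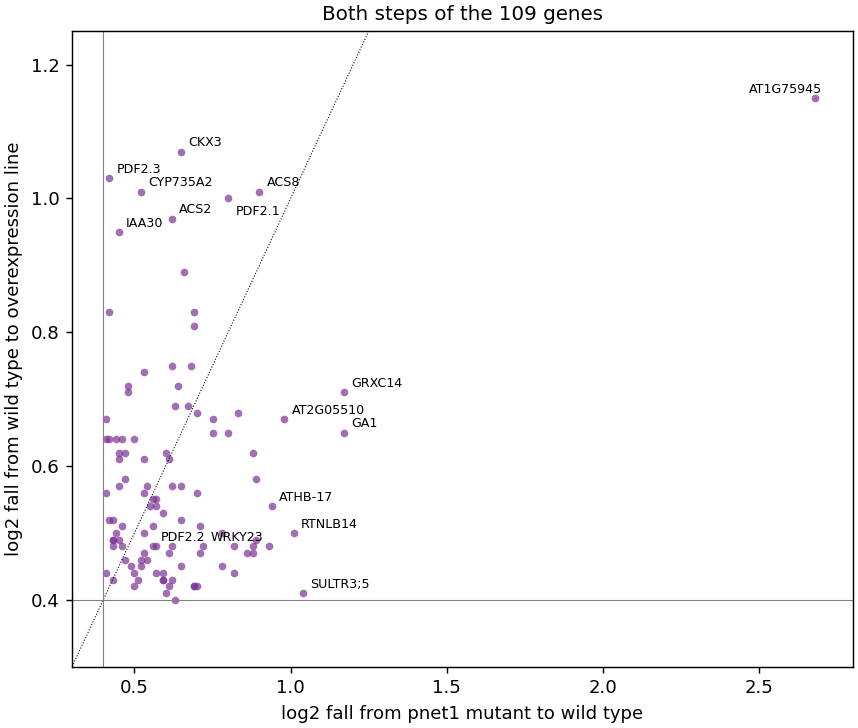
Each point is 1 of the 109 genes, with its log2 fall from the pnet1 mutant to the wild type on the horizontal axis and from the wild type to the overexpression line on the vertical axis. Grey lines mark the threshold of 0.4 at each step and the dotted line marks equal steps; AT1G75945 lies far to the right at 2.68, and CKX3, PDF2.3, ACS8, CYP735A2 and PDF2.1 lie high at 1.0 to 1.07.

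At the edge of the choice stood ERF6, ALMT1 and SULTR3;5, whose smaller steps were 0.404, 0.406 and 0.406. Just outside it were SBT3.3, GAD1 and AMY1, with smaller steps of 0.397, 0.392 and 0.388. SBT3.3, a subtilase, averaged 215, 163 and 117 CPM in mutant, wild type and overexpression line.

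Genes of hormone synthesis and breakdown were among the members with the largest falls. Both ACS8 and ACS2 encode 1-aminocyclopropane-1-carboxylate synthases, the enzymes of the committed step of ethylene synthesis. ACS8 (AT4G37770) stood at 32.7, 30.7 and 31.7 CPM in the mutant, 14.0, 16.9 and 19.4 CPM in the wild type and 9.04, 7.34 and 7.91 CPM in the overexpression line. Its 2 steps were about equal, 0.90 and 1.01, and the mutant mean was 3.75-fold above the overexpression mean. ACS2 (AT1G01480) stood at 162, 159 and 162 CPM, then 83.5, 109 and 120.1 CPM, then 62.1, 50.7 and 46.2 CPM. The 3 mutant libraries of ACS2 were nearly level while the wild-type libraries spread widely. Of 17 ethylene genes tested, these were the 2 members. Over all 19698 genes tested, 12.6% were called higher and 17.4% lower in the mutant, and 5.96% higher and 5.26% lower in the overexpression line. The counts of lists given below stand beside these shares. They include any members in a list, which the rule chose on these same contrasts, so part of such a count was set by the choice. Outside the rule, ACS6 averaged 12.5 ± 0.673, 11.2 ± 1.28 and 9.36 ± 0.314 CPM, and ACS7 averaged 38.5 ± 5.31, 40.2 ± 2.55 and 33.8 ± 5.42 CPM in mutant, wild type and overexpression line (SD, n = 3 here and below); neither passed the test in either comparison. EBF2, an F-box protein that degrades the ethylene-response factor EIN3, went up in both genotypes: by 0.54 ± 0.127 on the log2 scale, given with its SE here and below, in the mutant (edgeR adjusted p = 0.015, and not called without wild-type replicate 2) and by 0.77 ± 0.126 in the overexpression line (edgeR adjusted p = 0.01). Of the 17 ethylene genes, 9 were called higher and 1 lower in the mutant, and 3 higher and 3 lower in the overexpression line. Without the 2 members, 7 were called higher in the mutant and 1 lower in the overexpression line. The 1 lower in the mutant was the ethylene synthesis gene ACO4, which fell by 1.27 ± 0.162 (edgeR adjusted p = 0.00056). In the overexpression line ACO4 stood at 0.44 ± 0.143 (edgeR adjusted p = 0.092).

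Cytokinin was acted on from opposite sides by a pair of members. CKX3 (AT5G56970) is a cytokinin dehydrogenase that breaks the hormone down, and CYP735A2 (AT1G67110) is the cytokinin hydroxylase that makes trans-zeatin forms. CKX3 stood at 210.3, 189.9 and 210.0 CPM in the mutant, 95.2, 139 and 155 CPM in the wild type and 71.4, 53.5 and 59.5 CPM in the overexpression line. CYP735A2 stood at 21.6, 20.9 and 18.7 CPM, then 13.2, 12.6 and 16.5 CPM, then 7.48, 6.20 and 6.56 CPM. In both genes the second step was the larger, 1.07 for CKX3 and 1.01 for CYP735A2, and the groups were kept apart by a wide gap on the overexpression side. The paralogue CYP735A1 was listed at 0 counts in all 9 libraries. Of 22 cytokinin-response genes tested, 4 were called higher and 6 lower in the mutant, and 3 higher and 6 lower in the overexpression line; the response regulators ARR4, ARR5, ARR8, ARR9 and ARR15 were among the 6 that fell in the overexpression line, with log2 fold changes from -0.24 to -0.40. Those 6 became 3 with the replicate block or in a fit on the 2 groups, and 1 to 3 without wild-type replicate 2 or 3 or overexpression replicate 2 or 3; ARR5 was called in 7 and ARR9 in 8 of the 16 alternatives. The 4 called higher in the mutant ranged from 1 to 7 over the same alternatives. Among the other dehydrogenases, CKX4 fell by 1.5 ± 0.226 in the mutant (edgeR adjusted p = 9.6e-05) and CKX7 fell by 0.45 ± 0.0994 (edgeR adjusted p = 0.0023). The response regulator ARR16 also fell there, by 0.69 ± 0.142 (edgeR adjusted p = 0.0013). GATA22, of the same list, fell by 1.23 ± 0.149 in the mutant (edgeR adjusted p = 1.4e-05) and rose by 0.63 ± 0.125 in the overexpression line (edgeR adjusted p = 0.0051).

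In the gibberellin pathway, the rule took an enzyme of synthesis and one of inactivation. GA1 (AT4G02780), ent-copalyl diphosphate synthase of the first committed step, stood at 13.0, 10.4 and 12.4 CPM in the mutant, 4.62, 4.68 and 5.75 CPM in the wild type and 4.24, 2.45 and 2.33 CPM in the overexpression line. Most of its fall lay in the first step, 1.17 against 0.65, and overexpression replicate 1 came close to the wild type. GA2OX2 (AT1G30040), a gibberellin 2-oxidase that inactivates the hormone, stood at 106, 105 and 103 CPM, then 67.4, 73.2 and 85.7 CPM, then 58.8, 43.2 and 44.8 CPM. Of 23 gibberellin genes tested, 5 were called higher and 8 lower in the mutant (3 higher without wild-type replicate 2 or mutant replicate 2), and none higher and 4 lower in the overexpression line. Without the 2 members, 3 were called higher in the mutant and 2 lower in the overexpression line. The split in the overexpression line was not stable: DESeq2 gave 3 higher and 2 lower, library totals 3 and 4, and the fit without overexpression replicate 3 none in either direction. GA3OX1, which makes active gibberellin, fell by 1.07 ± 0.182 in the mutant (edgeR adjusted p = 0.00027), and GASA4, a gibberellin-induced peptide gene, fell by 0.73 ± 0.0858 there (edgeR adjusted p = 0.00019). GA1 and the later enzyme GA3OX1 thus stood on opposite sides of the wild type in the mutant.

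Enzymes of further hormones were members with smaller falls. CYP734A1 (AT2G26710), which inactivates brassinosteroids, averaged 38.9 ± 1.56, 27 ± 2.94 and 19.6 ± 1.78 CPM in mutant, wild type and overexpression line. UGT76B1 (AT3G11340), a glucosyltransferase of salicylic acid and isoleucic acid, averaged 18.9 ± 0.664, 11.4 ± 1.56 and 6.92 ± 1.23 CPM in the same order. NCED5 (AT1G30100), named here after its values were seen, cuts carotenoids on the way to abscisic acid; it stood at 7.58, 6.79 and 6.90 CPM in the mutant, 4.46, 5.15 and 5.70 CPM in the wild type and 3.91, 3.64 and 2.87 CPM in the overexpression line. Its highest overexpression library lay close under its lowest wild-type library.

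**Figure D2:**
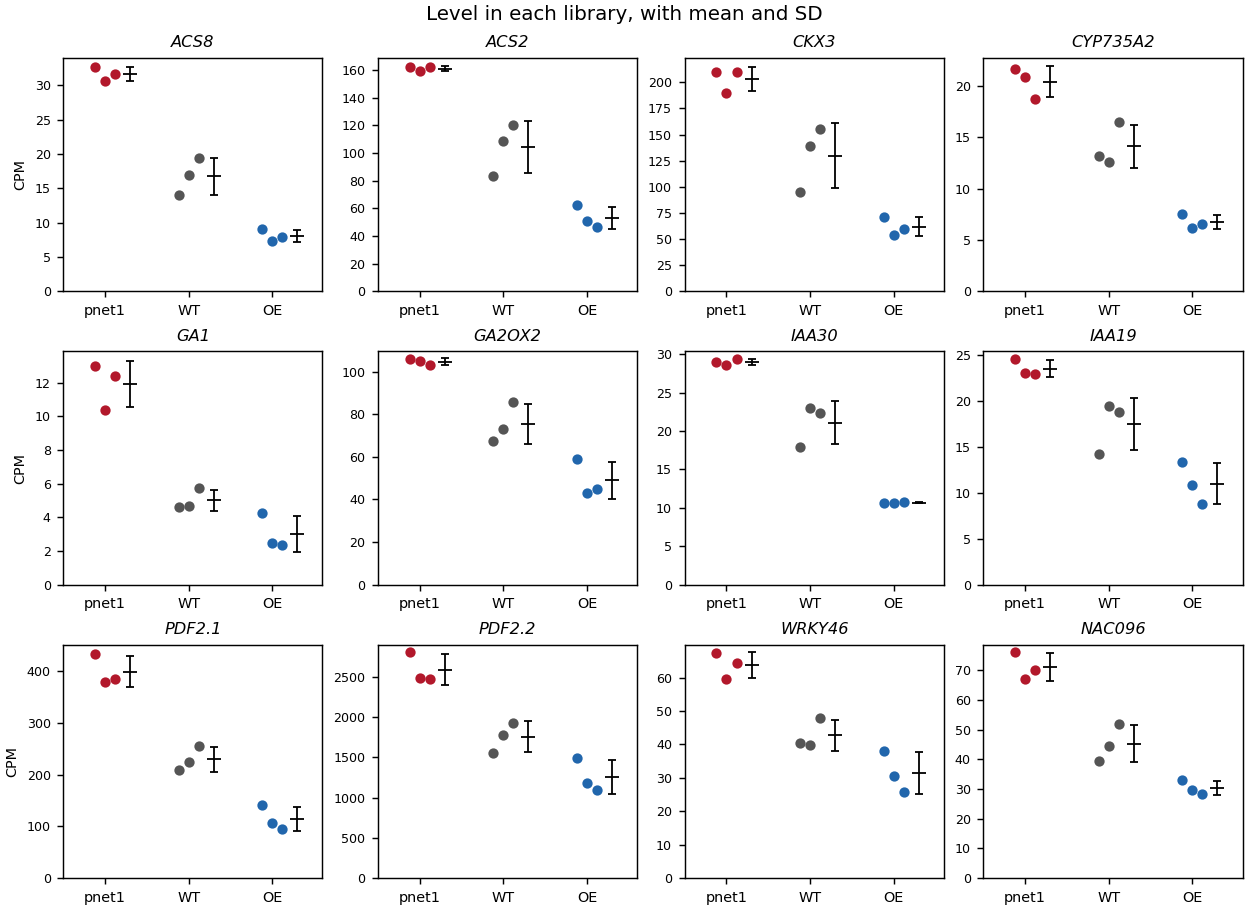
CPM of 12 members in each of the 9 libraries (points, in the order of the replicate numbers) with the group mean and SD to the right; pnet1 is the mutant, WT the wild type and OE the overexpression line, and every vertical axis starts at 0. ACS2, GA2OX2 and IAA30 are nearly level within the mutant, and in most panels the rightmost wild-type point, replicate 3, is the highest of its group.

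Auxin genes in the set covered response, transport and signalling. IAA19 and IAA30 are Aux/IAA proteins, repressors of auxin response that auxin itself induces or destabilises. IAA19 (AT3G15540), whose upstream stretch holds the 3 auxin response elements shown above, stood at 24.6, 23.1 and 22.9 CPM in the mutant, 14.2, 19.4 and 18.8 CPM in the wild type and 13.3, 10.8 and 8.83 CPM in the overexpression line. IAA30 (AT3G62100) stood at 29.0, 28.6 and 29.4 CPM, then 17.9, 23.0 and 22.3 CPM, then 10.6, 10.6 and 10.7 CPM. The overexpression libraries of IAA30 were almost identical, whereas those of IAA19 reached up to just under the lowest wild-type library. Among 31 auxin-response genes tested, 17 were called higher and 3 lower in the mutant, and 3 higher and 8 lower in the overexpression line. The list had a median log2 fold change of 0.20 in the mutant and of -0.08 in the other comparison, where the medians over all genes tested were 0.00.

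Relatives of these genes showed that the 2 steps did not always go together. IAA5 fell by 0.88 ± 0.106 in the overexpression line (edgeR adjusted p = 0.00025) but stood at 0.19 ± 0.0981 in the mutant (edgeR adjusted p = 0.17). IAA2 rose by 0.57 ± 0.0615 in the mutant (edgeR adjusted p = 8.9e-06) and stood at 0.09 ± 0.0622 in the overexpression line (edgeR adjusted p = 0.41). GH3.5, which conjugates auxin to amino acids, fell by 0.58 ± 0.0936 in the mutant (edgeR adjusted p = 0.00059) and rose by 0.52 ± 0.0878 in the overexpression line (edgeR adjusted p = 0.0045).

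Further members act in auxin transport or downstream of it. PID2 (AT2G26700), a kinase related to PINOID, which steers auxin efflux carriers, stood at 43.6, 37.2 and 40.6 CPM in the mutant, 18.8, 21.0 and 25.6 CPM in the wild type and 18.2, 11.5 and 12.2 CPM in the overexpression line. The first overexpression library almost reached the wild type. WRKY23 (AT2G47260), an auxin-induced transcription factor, stood at 555, 502 and 489.9 CPM in the mutant, 284, 308 and 348 CPM in the wild type and 276, 201 and 197 CPM in the overexpression line. Overexpression replicate 1 of WRKY23 lay just under the lowest wild-type library, and the other libraries of that line lay far lower. PIN6, an auxin efflux carrier, NPY4, which works with kinases of the PINOID family, and MAKR4, a membrane-associated kinase regulator, were picked out after their values were seen. PIN6 (AT1G77110) stood at 51.7, 44.9 and 47.9 CPM, then 28.3, 31.9 and 34.9 CPM, then 20.4, 20.9 and 19.9 CPM. NPY4 (AT2G23050) stood at 72.4, 63.3 and 69.1 CPM, then 36.0, 39.1 and 43.7 CPM, then 31.4, 26.3 and 25.6 CPM. MAKR4 (AT2G39370) was low throughout, with means of 4.41 ± 0.673, 2.5 ± 0.42 and 1.61 ± 0.38 CPM.

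Transcription factors of wound healing and vascular tissue were also present. ANAC096 (NAC096, AT5G46590) acts with its relative ANAC071 in tissue reunion and cambium formation after wounding. It stood at 76.2, 67.0 and 70.2 CPM in the mutant, 39.4, 44.5 and 51.8 CPM in the wild type and 33.0, 29.8 and 28.2 CPM in the overexpression line. ERF114 (AT5G61890), an AP2/ERF factor that promotes cell proliferation, stood at 31.6, 29.6 and 28.6 CPM, then 19.3, 22.8 and 23.5 CPM, then 15.4, 13.9 and 12.4 CPM. Of 20 callus and wound genes tested, 11 were called higher and 1 lower in the mutant (6 and 1 without wild-type replicate 2, 7 and 1 without mutant replicate 1), and 2 higher and 4 lower in the overexpression line (1 and 7 without overexpression replicate 1, none and 2 without wild-type replicate 3). The 20 include the polyol transporter genes AT3G18830 and AT2G18480, matched by symbol, and AT3G18830 is 1 of the 11. Without the 2 members, 9 were called higher in the mutant and 2 lower in the overexpression line. Outside the rule, anac071 fell by 0.54 ± 0.134 in the overexpression line (edgeR adjusted p = 0.039, called in 6 of the 16 alternatives) and stood at 0.32 ± 0.128 in the mutant (edgeR adjusted p = 0.1). WOX11, a homeobox gene of the first step from hypocotyl or leaf cells to root founder cells, rose by 0.77 ± 0.0826 in the mutant (edgeR adjusted p = 6.3e-05) and fell by 0.35 ± 0.0853 in the overexpression line (edgeR adjusted p = 0.026, not called without overexpression replicate 3 or any 1 wild-type library). WOX5, the 1 gene of the list called lower in the mutant, went the other way. It fell by 0.90 ± 0.212 there (edgeR adjusted p = 0.0033) and rose by 0.67 ± 0.18 in the overexpression line (edgeR adjusted p = 0.024).

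DOF5.1 (AT5G02460), one of the PEAR factors that drive divisions around the early phloem, stood at 86.5, 75.2 and 82.8 CPM in the mutant, 43.6, 43.4 and 50.6 CPM in the wild type and 39.7, 28.4 and 29.9 CPM in the overexpression line. LBD4 (AT1G31320), a regulator at the border of procambium and phloem, stood at 257, 225 and 226 CPM, then 139, 147 and 182 CPM, then 135, 103 and 113 CPM. In both genes overexpression replicate 1 lay just under the lowest wild-type library. XCP1 (AT4G35350), a cysteine protease of xylem vessel cells, averaged 38.1 ± 8.12, 21.9 ± 2.61 and 15.9 ± 1.86 CPM; it overlaps AT4G35360 on the other strand, and whether the counting used strand was not given in the sources used here, so its counts are uncertain. Phloem genes as a list rose in the mutant, with 22 of 26 called higher and none lower and a median of 0.65, while in the overexpression line 1 was called higher and 4 lower, with a median of -0.10. The 4 became 1 in a fit on the 2 groups and without wild-type replicate 3 or overexpression replicate 2 or 3. Their summed level was 2607 to 2779.8 CPM in the mutant, 1697 to 1958 CPM in the wild type and 1457 to 1771 CPM in the overexpression line, and no gene of the list was at 0. Of 24 xylem and secondary wall genes, 7 were called higher and 1 lower in the mutant, and none higher and 2 lower in the overexpression line (1 lower without replicate 2 or 3 of the wild type, or replicate 1 or 2 of either other genotype). The part that the amount of vascular tissue has in the levels of the 109 genes was not tested.

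Other transcription factors in the set came from many families. NAC factors gave 4 members of 60 eligible genes, the highest count of any family compared. By share they stood below the CC-type glutaredoxins, which gave 3 members of 22 eligible genes. Besides ANAC096, ANAC084 averaged 54.1 ± 3.06, 35.4 ± 3.81 and 25.5 ± 4.59 CPM in mutant, wild type and overexpression line. ANAC049 averaged 16.4 ± 1.8, 11.2 ± 1.12 and 7.14 ± 1.77 CPM, and ANAC097 averaged 5.71 ± 0.827, 3.19 ± 0.358 and 1.85 ± 0.0205 CPM. Of 71 NAC factors tested, 28 were called higher and 5 lower in the mutant, and 2 higher and 12 lower in the overexpression line. Without the 4 members, 24 were called higher in the mutant and 8 lower in the overexpression line. The 12 became 7 with the replicate block, 6 in a fit on the 2 groups, 3 without wild-type replicate 3, 7 without wild-type replicate 2 and 6 without overexpression replicate 2 or 3. WRKY46 (AT2G46400), a factor of salicylic acid defence, averaged 63.8 ± 3.94, 42.7 ± 4.53 and 31.4 ± 6.15 CPM, and ERF6 (AT4G17490), a stress-induced factor, averaged 33.9 ± 2.02, 21.7 ± 3.08 and 16.3 ± 1.9 CPM. The largest falls among the rest were those of MYB101 (AT2G32460), a GAMYB-like factor, with means of 4.59 ± 0.325, 2.65 ± 0.636 and 1.3 ± 0.192 CPM, and of ATHB-17 (AT2G01430), an HD-ZIP factor, with means of 23.7 ± 1.68, 12.1 ± 1.73 and 8.2 ± 1.56 CPM. PRE1 (AT5G39860), an atypical bHLH protein of cell elongation, averaged 29.4 ± 0.35, 20.8 ± 2.99 and 15.1 ± 2.95 CPM. BHLH157 averaged 66.6 ± 3.61, 43.5 ± 4.82 and 28.3 ± 3.91 CPM, AtbZIP7 averaged 19.6 ± 1.59, 12.4 ± 1.99 and 8.49 ± 0.178 CPM and the trihelix factor GT-3A averaged 13.3 ± 0.925, 9.57 ± 1.15 and 6.74 ± 1.16 CPM.

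Salicylic acid defence gave 2 members. Of 27 genes of salicylic acid defence tested, UGT76B1 and WRKY46 belonged to the set; 13 of the list were called higher and 2 lower in the mutant, and 1 higher and 8 lower in the overexpression line, with medians of 0.28 and -0.39 (15 lower in the overexpression line without its replicate 1, and 10 higher and 5 lower in the mutant without wild-type replicate 2). EDS1, a hub of immune signalling, rose by 0.35 ± 0.0743 in the mutant (edgeR adjusted p = 0.0032) and fell by 0.44 ± 0.0765 in the overexpression line (edgeR adjusted p = 0.0047). CBP60G, a regulator of salicylic acid synthesis, rose by 0.50 ± 0.0786 (edgeR adjusted p = 0.00024) and fell by 0.41 ± 0.0827 (edgeR adjusted p = 0.0067). PR1, the usual readout of the pathway, averaged 0.82 ± 0.0588, 2.04 ± 2.16 and 0.725 ± 0.112 CPM and did not pass in either comparison (edgeR adjusted p = 0.2 and 0.23), and PR5 fell by 1.15 ± 0.24 in the mutant (edgeR adjusted p = 0.013). EDS1 and CBP60G thus passed in the directions in which the 109 genes moved, and neither pathogenesis-related gene did. Of 31 rapid stress genes tested, ERF6 was the member; 17 were called higher and 2 lower in the mutant, and none higher and 5 lower in the overexpression line, where the 5 ranged from none without overexpression replicate 3 to 11 without replicate 1. The jasmonate list of 26 tested genes held no member.

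A glycine-rich protein and a defensin had the highest levels. Per length, ATGRP9 (AT2G05440), a glycine-rich protein, had the highest wild-type mean of the 109 genes, 3268 ± 264 FPKM (fragments per kilobase and 1000000 fragments; SD, n = 3), followed by the defensin gene PDF2.2 (AT2G02100) at 2333 ± 251 FPKM. Next came AT3G18280, picked out after its values were seen, at 1103 ± 159.5 FPKM, and AT2G05510 at 1051 ± 179 FPKM. In CPM, ATGRP9 stood at 3822, 3499.6 and 3254 in the mutant, 2609, 2321 and 2725 in the wild type and 1703, 1694 and 1712 in the overexpression line. Its overexpression libraries were nearly level, and its 2 steps were 0.47 and 0.58. AT2G05510, for which the table gives no description beyond its locus, is the next protein-coding gene in the table, 21446 bases away and on the same strand. Its closest copy is ATGRP9, 86.5% identical over 444 bases. AT2G05510 stood at 1907, 1829 and 1298 CPM, then 702, 859.5 and 996 CPM, then 584, 488 and 539 CPM.

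PDF2.2, PDF2.1 and PDF2.3 encode plant defensins, small cysteine-rich secreted peptides, and lie within chr2:528179-540707, all on the plus strand. PDF2.1 and PDF2.3 are direct neighbours among protein-coding genes, 774 bases apart. AT2G02103, listed at 0 counts in all 9 libraries, lies between them and PDF2.2. PDF2.2 stood at 2813, 2488 and 2476 CPM in the mutant, 1550.3, 1779 and 1934 CPM in the wild type and 1496, 1183 and 1099.8 CPM in the overexpression line. PDF2.1 (AT2G02120) stood at 434, 379 and 385 CPM, then 209, 224 and 255 CPM, then 141, 107 and 95.6 CPM. PDF2.3 (AT2G02130) stood at 289, 228 and 258 CPM, then 156, 204 and 218 CPM, then 117, 88.4 and 77.0 CPM. The 3 genes differed in where the fall lay: PDF2.3 fell by 0.42 at the first step and 1.03 at the second, PDF2.1 by 0.80 and 1.0, and PDF2.2 by 0.56 and 0.48. Their next neighbour in the family, PDF2.6, was listed at 0 counts in all 9 libraries. In the stretches printed above, PDF2.1 and PDF2.3 share the run aagcaaataaatcgacaaaatt of 22 bases, 230 and 115 bases before their starts, in both 1 base after the DRE core. PDF2.2 and PDF2.1 share gtcggtaaagcaaataaa, 18 bases that include the core, and all 3 share aagcaaataaa; in PDF2.2 both runs cross the annotated start.

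Enzymes of redox control, cell wall and transport made up much of the rest. GRXC14 (AT3G62960), a plant-specific CC-type glutaredoxin, stood at 17.2, 14.4 and 17.8 CPM in the mutant, 6.57, 5.86 and 8.66 CPM in the wild type and 4.41, 3.53 and 4.34 CPM in the overexpression line. Its relatives GRXC8 and GRXS7 averaged 5.44 ± 0.247, 3.3 ± 0.709 and 1.81 ± 0.579 CPM and 3.18 ± 0.404, 1.9 ± 0.105 and 1.28 ± 0.226 CPM. Of 23 glutaredoxins of this type tested, 10 were called higher and 3 lower in the mutant (6 and 2 without wild-type replicate 2 or mutant replicate 3), and none higher and 3 lower in the overexpression line. Without the 3 members, 7 were called higher in the mutant and 1 lower in the overexpression line. TRX5, a cytosolic thioredoxin, averaged 198 ± 15.6, 144 ± 11.3 and 101 ± 15.9 CPM, and the glutathione transferase GSTU11 averaged 38.5 ± 0.227, 27.5 ± 3.03 and 16.6 ± 2.33 CPM.

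Among cell wall genes, the peroxidases PER19 and PER21 averaged 55.6 ± 2.13, 32.8 ± 5.29 and 20.4 ± 4.53 CPM and 119.9 ± 11.4, 62.8 ± 8.91 and 45 ± 5.27 CPM in mutant, wild type and overexpression line. Peroxidases as a family did not follow them, with 10 of 46 called higher and 20 lower in the mutant. XTH20, a xyloglucan endotransglucosylase that loosens or joins wall chains and acts in wound healing of stems, averaged 59.5 ± 5.78, 32.1 ± 4.59 and 23.1 ± 2.87 CPM. PME1, a pectin methylesterase inhibitor by its description, averaged 69.9 ± 3.38, 46.9 ± 2.93 and 33.6 ± 4.25 CPM, and overlaps a gene on the other strand. The sulfate transporter gene SULTR3;5 had means of 53.8 ± 2.86, 25.8 ± 4.13 and 19.4 ± 1.45 CPM, with most of the fall at the first step. BGLU28, a beta-glucosidase, averaged 42.1 ± 1.36, 23.5 ± 4.62 and 14.5 ± 3.09 CPM. The acyltransferase PMAT2, which adds malonyl groups to phenolic glucosides, averaged 18 ± 0.441, 11.3 ± 0.771 and 5.86 ± 0.684 CPM, and its libraries did not come near to overlapping. The reticulon RTNLB14, a protein that curves membranes of the endoplasmic reticulum, averaged 32.4 ± 6.12, 15.9 ± 2.57 and 11.1 ± 2.51 CPM. The aluminium-activated malate channel ALMT1, the NRT1/PTR family transporter NPF4.4, the MATE transporter DTX14 and the receptor-like protein AtRLP38 were further members. In that order, their means were 29.8 ± 4.58, 22.4 ± 3.51 and 13.9 ± 0.0854 CPM, 7.46 ± 1.15, 4.97 ± 0.358 and 3.18 ± 0.457 CPM, 39.5 ± 0.367, 28.3 ± 4.06 and 20.4 ± 1.48 CPM and 133 ± 5.94, 82.3 ± 7.62 and 61.3 ± 9.6 CPM.

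The largest fall of all belonged to AT1G75945, which was singled out after its values were seen and has no symbol or description in the table. This gene (chr1:28515245-28515916, minus strand) stood at 12.4, 11.4 and 13.6 CPM in the mutant, 1.39, 1.60 and 1.58 CPM in the wild type and 0.447, 0.455 and 0.325 CPM in the overexpression line. The mutant mean was 14.3-fold above the overexpression mean, and the gap of 2.68 at the first step was the largest of the set. In the overexpression line the level rested on as few as 6 counts per library; CYP724A1 and AT3G13630 were the other members with fewer than 10 counts in some library. No annotated gene overlapped AT1G75945 and no copy of at least 90% identity over 200 bases was found for it.

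**Figure D3:**
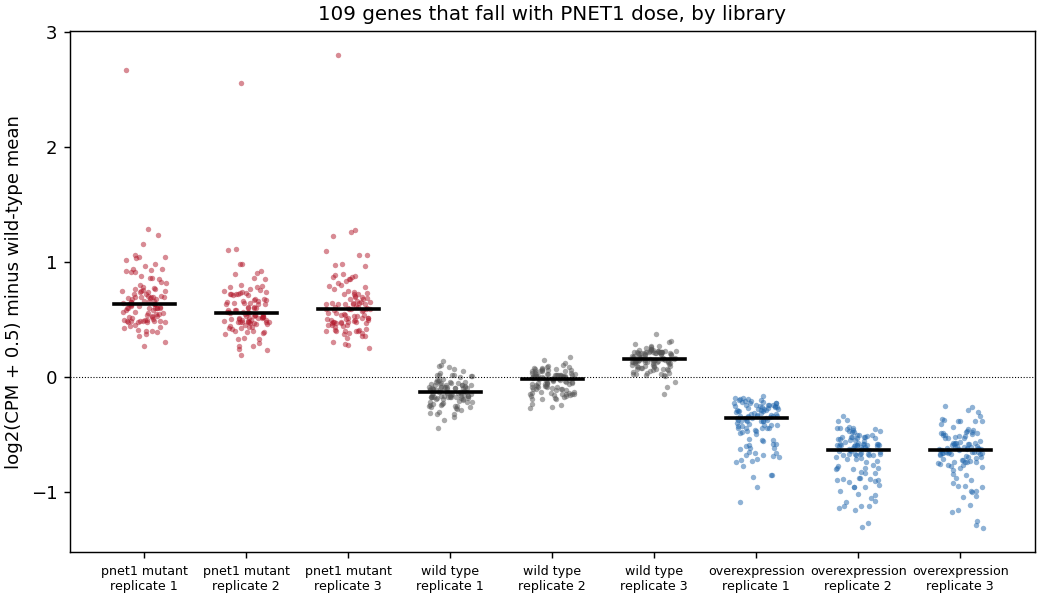
Each point is 1 of the 109 genes in 1 library, as log2(CPM + 0.5) minus the log2 of the wild-type mean plus 0.5; black bars are the library medians. The separation of the 3 genotypes follows from the choice, and what it does not fix is the order within a group: the median is 0.15 in wild-type replicate 3 against -0.14 in replicate 1, and -0.36 in overexpression replicate 1 against -0.64 and -0.63.

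Within the wild type and the overexpression line, most members had the same library highest. The share over all eligible genes is not given here, so this order is not read as particular to the members. Wild-type replicate 3 was the highest wild-type library for 96 of the 109 genes and overexpression replicate 1 the highest of its line for 89, while in the mutant the highest place was spread more widely, with 64 genes in replicate 1. Summed over the members, the level was 14958 to 16918 CPM in the mutant, 9523 to 11517 CPM in the wild type and 6585 to 7795 CPM in the overexpression line. These are the same libraries that stood apart on the first principal component, where wild-type replicate 3 lay nearest the mutant and overexpression replicate 1 nearest the wild type.

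To read the order in libraries that had no part in the choice, the rule was applied 9 times with 1 library left out, and the left-out library was then looked at. Without a mutant library, 103 to 117 genes were chosen, and the left-out library lay above both other groups for 96.1% to 98.2% of them, against 39.6% to 44.2% of eligible genes. When a wild-type library was left out, 91 to 146 genes were chosen, and it lay between the other groups for 88.2%, 82.2% and 91.2% of them, for replicates 1, 2 and 3, against 10.3% to 13.1% of eligible genes. Without overexpression replicate 2 or 3, 88 and 89 genes were chosen, and the left-out library was in place for 98.9% and 94.4%. Overexpression replicate 1 was the exception: 232 genes were chosen without it, and it lay below both other groups for 141 of them, 60.8%, against 25.1% of eligible genes. In each round the genes were chosen for steps between the groups, and the eligible genes as a whole were not. No conclusion is therefore drawn from the difference between the shares. Of the 109 genes, 44 were chosen in each of the 9 rounds.

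**Figure D4:**
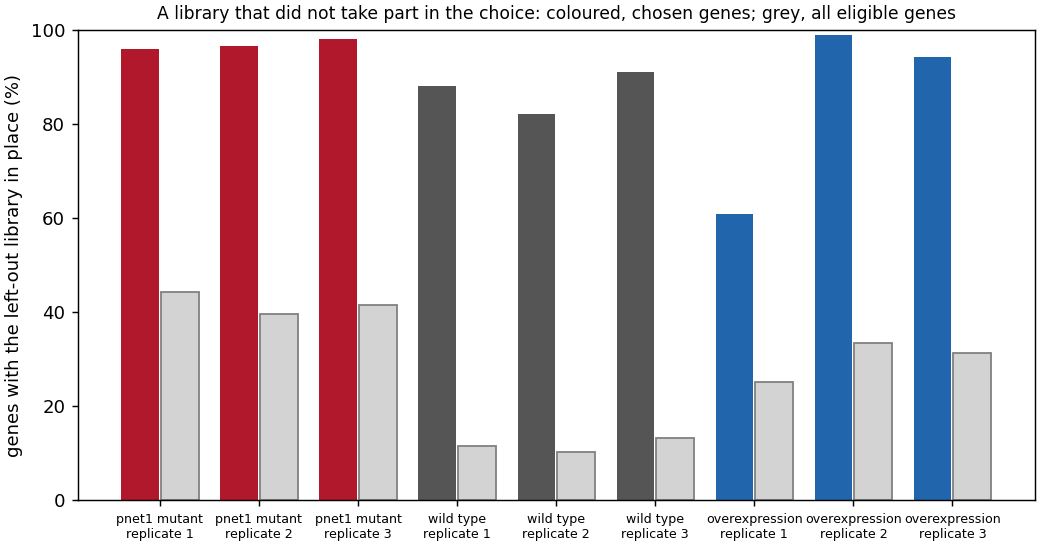
For each library, the coloured bar gives the percentage of genes chosen from the other 8 libraries for which the left-out library lay on its own side of both other groups, and the grey bar gives the same percentage over all eligible genes. Coloured bars reach 82.2% to 98.9% except for overexpression replicate 1, at 60.8%.

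The test across all genes, edgeR's quasi-likelihood test over 19698 genes with Benjamini-Hochberg adjustment and a threshold of 0.05, used the same libraries as the rule. It called 104 of the 109 genes higher in the mutant than in the wild type, where 12.6% of all genes tested were called higher and 17.4% lower. That split, 2480 higher and 3432 lower, turned to 3841 higher and 2891 lower with an offset for GC content and length. In the overexpression line it called 92 of the 109 lower, where 5.26% of all genes tested were called lower and 5.96% higher, and 90 passed in both comparisons. Every mutant library lay above every wild-type library for 27.2% of eligible genes, and every overexpression library below every wild-type library for 12.7%. Since the rule used these contrasts, nothing is read from the members' counts. The overexpression calls rested on single libraries: without wild-type replicate 3, overexpression replicate 2 or overexpression replicate 3, the members called lower in that line numbered 50, 49 and 51.

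Photosynthesis genes and genes of epidermis, cuticle and stomata moved in the opposite direction, and neither list held a member. All 42 photosynthesis genes tested were called lower in the mutant, with a median of -1.05, and 7 were called higher in the overexpression line, with a median of 0.39 (25 by DESeq2, 2 with the replicate block, 1 without overexpression replicate 2, 3 without wild-type replicate 3 or overexpression replicate 3, and 34 without overexpression replicate 1). Their summed level was 5508 to 5699.8 CPM in the mutant, 9892 to 12596 CPM in the wild type and 12922 to 17675 CPM in the overexpression line. Genes of epidermis, cuticle and stomata were lower in the mutant in 20 of 23 cases, with summed levels of 358 to 442 CPM, 781 to 1002 CPM and 1070.2 to 1421 CPM. CPM values add to a fixed total, and the part that other tissues have in the levels of the 109 genes was not tested. Of 35 genes tested from the nucleoporin and nuclear envelope list, none was a member. In the mutant 6 were called higher (12 with the GC and length offset) and 1 lower. The 1 called lower was AT5G08740, matched by the symbol NDC1, which is an organelle NAD(P)H dehydrogenase and no nucleoporin. In the overexpression line none was called higher and 1 lower, a call lost in 15 of the 16 alternatives. Of 27 genes tested from the shoot meristem and boundary list, none was a member. In the mutant 7 were called higher and 2 lower, and in the overexpression line 5 higher and none lower. The list took the histone acetyltransferase genes AT5G64610 and AT5G09740 by the symbols HAM1 and HAM2. It took AT2G40360, a gene of ribosome biogenesis, by the symbol BOP1, and AT5G64610 is 1 of the 7. In the mutant the 7 became 4 by DESeq2 and without wild-type replicate 2 or 3 or mutant replicate 3. In the overexpression line the 5 became 3, 1 and 3 without wild-type replicate 2, wild-type replicate 3 and overexpression replicate 2.

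The 109 genes also shared features that the rule did not use. They had fewer exons, with a median of 2 against 5 over eligible genes, and 26 of them, 23.9%, had a single exon, against 12.9%. Their median length was 1608 bases against 1839 and their median GC content 40.4% against 41.2%. Fewer overlapped another annotated gene: 13 members, 11.9%, against 30.8%. Members were spread over all chromosomes, with 20.2% on chromosome 2 against 15% of eligible genes and 16.5% on chromosome 3 against 20.1%. There were 5 pairs of direct neighbours among protein-coding genes: PDF2.1 and PDF2.3, ATGRP9 and AT2G05510, PID2 and CYP734A1, AT5G23350 and AT5G23360, and AT5G56050 and AT5G56060. PID2 and CYP734A1, a kinase of auxin transport and an enzyme of brassinosteroid breakdown, are 9338 bases apart on the plus strand of chromosome 2. AT5G23350 and AT5G23360 encode the GEM-like proteins 6 and 7, and AT5G23350 is 90.4% identical over 638 bases to AT5G23370, so its counts are uncertain.

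Motifs were counted on both strands in the window from 250 bases before to 50 bases after the start, for 109 members and 16920 eligible genes. A TATA box (TATAAA) was in 73 member windows, 67.0% (95% exact binomial interval 57.3% to 75.7%, counting error only), against 50.7% of eligible genes. The site II element (TGGGCC), common upstream of growth and ribosomal genes, was in 4 member windows, 3.67% (1.01% to 9.13%), against 20.3%. DRE cores (ACCGAC) were in 14 windows, 12.8% (7.20% to 20.6%), against 6.55%, CAMTA boxes (ACGCGT) in 6, 5.50% (2.05% to 11.6%), against 2.42%, and auxin response elements in 27, 24.8% (17% to 34%), against 18.6%. The 14 windows with a DRE core include those of PDF2.1, PDF2.2 and PDF2.3, related genes that share bases at the core. The interval treats all windows as independent. W-boxes (TTGACC or TTGACT) were in 35.8% (26.8% to 45.5%) against 32.5%, and G-boxes (CACGTG) in 4.59% (1.51% to 10.4%) against 9.02%. PDF2.2, PDF2.1, PDF2.3, XTH20, ACS8, IAA19 and NUCL2 had both an auxin response element and a DRE core in the window. The share of eligible genes with both is not given here, so nothing is read from this count. In 4 of these 7 the motifs had bases in common, which was so for 3.67% of members and 2.09% of eligible genes. The intervals of the CAMTA box, the auxin response element, the W-box and the G-box include the share of eligible genes, 14 motifs were counted in all, and no test was made. In the last 150 bases before the start, the interval of the DRE core, 7.34% (3.22% to 14%), included the share of eligible genes, 3.79%, and that of the CAMTA box, 5.50% (2.05% to 11.6%), lay above it, 1.37%. A match describes the letters of the window and says nothing of a factor bound there.

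**Figure D5:**
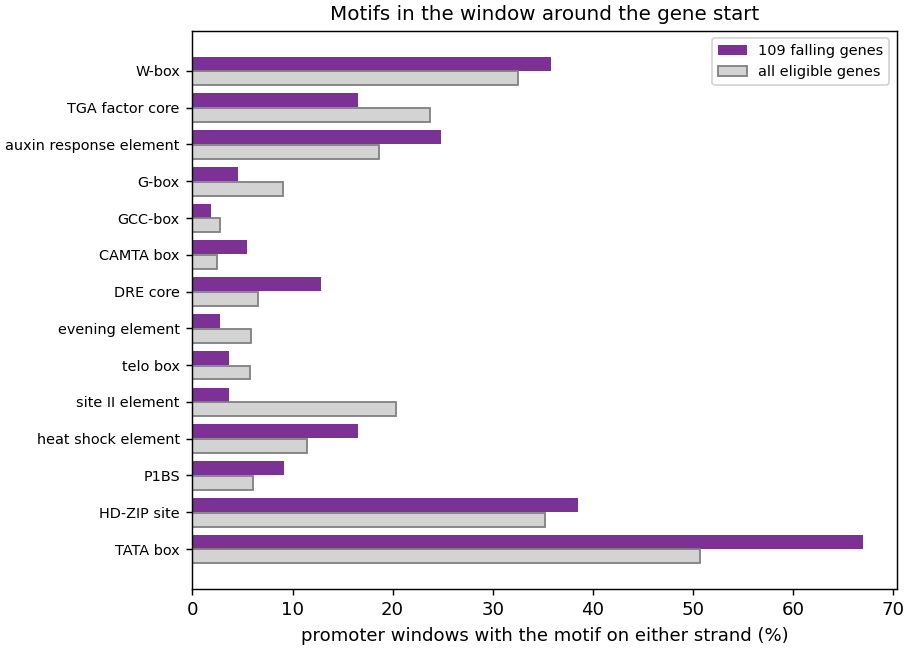
Percentage of windows around the gene start that hold each of 14 motifs on either strand, for the 109 members (purple) and all eligible genes (grey). The widest gaps are at the TATA box, 67.0% against 50.7%, and the site II element, 3.67% against 20.3%.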

How the data were processed

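Whole-callus RNA of 9 libraries, 3 per genotype, was sequenced as strand-specific mRNA libraries, per the labels' protocols. The authors deposited a table of raw counts per gene and a table of FPKM; the submitters' processing notes name HISAT2 2.0.4, HTSeq 0.6.1p1 and TAIR10. Which release of the annotation was used, whether counting took account of strand, and what was filtered were not given in the sources used here. The deposited counts were whole numbers. The deposited FPKM values, the authors' own, were used only to compare levels between genes and as an alternative scale.

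CPM was the count times 1000000 divided by the column sum. Members follow the rule that opens the report. The members and lists were chosen with earlier results of these data known, and some lists overlap each other. List genes were matched by symbol, so a symbol shared by different genes could bring in the wrong one. Named members were the 15 with a symbol and the largest falls, the 6 with a symbol and the highest wild-type FPKM, up to 5 of each list or family by fall, up to 10 further transcription factors, those next to the threshold, and neighbours; exceptions are marked. Genes were tested with edgeR 4.0.16 in R 4.3.3 (quasi-likelihood, robust, TMM factors, filterByExpr with a minimum count of 10, all 9 libraries in 1 fit), with Benjamini-Hochberg adjusted p under 0.05. DESeq2 1.42.0, other scalings, filters, pseudocounts, thresholds, a replicate block, a fit on the groups compared, a GC and length offset, and leaving out each library were alternatives. A family column was not used.

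Of 32833 identifiers, 32548 were found in the RefSeq TAIR10.1 annotation and 32520 had the same start and end there; exons, GC content and upstream windows come from that genome. Copies were searched with blastn 2.17.0. Libraries held between 16890848 and 19493969 counts; 3 members had fewer than 10 counts in some library.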

Additional observations from a re-analysis of the deposited data

How the results depend on the processing

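The number of genes in the set followed the threshold: 205 with a step of 0.3 (all 109 included) and 23 with a step of 0.6. It was 156 with an offset for GC content and length (108 shared), 108 with TMM factors (101 shared), 110 with RLE factors (105 shared) and 105 on FPKM (101 shared). Leaving out 1 library gave 88 to 232 genes, and the 232 came without overexpression replicate 1. Without wild-type replicate 3, 91 genes were chosen, of which 76 were among the 109. Genes called in the overexpression line, 2210 in all, numbered 1430 in a fit on those 2 groups and 737 to 3125 with 1 library left out: 737 without wild-type replicate 3, 1112 and 946 without overexpression replicates 2 and 3, and 3125 without overexpression replicate 1. Members called lower there ranged from 49 to 101 and those called in both comparisons from 49 to 96. The cause was not tested. Falls of the named members kept their direction in all 550 recomputations and moved by more than 1 SD in 6.

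The replicate numbers showed no sign of pairing the samples: deviations of same-numbered libraries correlated at -0.176 to 0.077, and those of other pairs at -0.103 to 0.235. With 3 libraries per group these correlations cannot exclude a pairing. With the replicate block, 5685 genes were called in the mutant (5912 without it) and 1725 in the overexpression line, and 99, 78 and 76 members were called in the mutant, in the overexpression line and in both. Genes of a few counts per library are limited by depth.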
